A study of Homo sapiens with 6 samples.

Results

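Iron-sulfur cluster assembly was examined through 31 genes, chosen by name: 20 genes of the mitochondrial machinery and 11 genes of the cytosolic machinery. They were taken from 62252 annotated genes by summing the transcripts that carry each gene's name. RNA came from K562 cells, an established erythroid leukemia line that grows in suspension, and no genetic change is labelled in either group. The Chelator group was kept overnight with 10 µM of the cell-permeable iron chelator 21H7, the DMSO group received an equal volume of the solvent, and each group had 3 libraries of polyadenylated RNA, described by the submitters as biological replicates. The data thus hold 1 cell line, 1 dose and 1 time.

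Iron-sulfur clusters are cofactors of iron and sulfide that serve electron transfer and catalysis in respiration, DNA synthesis and repair, and iron sensing. In the mitochondrial matrix the cysteine desulfurase NFS1 with LYRM4 supplies sulfur to the scaffold ISCU, electrons reach the scaffold from NADPH through FDXR and a ferredoxin, the chaperones HSPA9 and HSCB and the glutaredoxin GLRX5 move the new cluster on, and late factors build or deliver clusters of other kinds. Clusters of cytosolic and nuclear proteins are assembled on the NUBP1 and NUBP2 scaffold, which takes electrons from NDOR1 through CIAPIN1, and are handed to client proteins by CIAO3, CIAO1, CIAO2B and MMS19. In erythroid cells the same mitochondrial iron, imported largely by SLC25A37 (mitoferrin 1), also serves heme synthesis.

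The libraries held 78.6 to 101.1 M estimated counts each (M, 1e+06). TFRC, the transferrin receptor mRNA that low iron stabilizes, rose by 2.89 on the log2 scale (SE 0.10, DESeq2 adjusted p = 3.19e-172), which matched the labels in all 6 libraries. Among markers of K562 cells, the globin genes HBE1, HBZ, HBG2 and HBG1 rose, by 0.76, 0.48, 0.37 and 0.24 on the log2 scale, while the erythroid regulators KLF1 (-0.72), EPOR (-0.44) and TAL1 (-0.28) fell and GATA1 (-0.13) did not pass the DESeq2 test. The 8 markers of other cell types summed to 72.2 to 79.2 TPM (transcripts per 1e+06 transcripts) in DMSO and to 54.3 to 61.1 TPM in Chelator, most of it from EPCAM, and MS4A1 was at 0 in every library. The median amount by which length exceeded effective length in uncounted transcripts, a measure of fragment length, was 252 to 264 bases in DMSO and 200 to 218 bases in Chelator, and its part in the results was not tested apart from the fit without the length offset. In bulk RNA, fewer cells of a type and less RNA per cell cannot be told apart.

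To compare the machineries, DESeq2's Wald test was run across all genes, and a gene passed at an adjusted p under 0.05. Of the 31 genes, 3 rose in Chelator (SLC25A37, BOLA1 and FDXR), 12 fell and 16 did not pass. Over the 24542 genes with an adjusted p, 19.5% passed as higher and 18.3% as lower, and over the 10341 genes whose normalized counts averaged 500 or more, a class that takes in 30 of the 31 members, 26.0% passed as higher and 35.6% as lower. The share of members that fell, 38.7%, was thus near that of genes with similar counts. In the mitochondrial list 3 of 20 rose and 5 fell, with a median log2 fold change of -0.0058. In the cytosolic list 0 of 11 rose (also 0 by edgeR and at an unadjusted DESeq2 p under 0.05) and 7 fell (63.6%), with a median of -0.22, and 10 of the 11 values were below 0. The median was 0.016 over all genes and -0.070 over those with at least 500 counts.

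The size of these counts, and for the mitochondrial list the direction, depended on scaling. Centring the libraries moved every log2 fold change down by 0.15, so that 35.6% of the genes that passed were higher in place of 51.6%. The mitochondrial list then gave 3 higher and 8 lower and the cytosolic list 0 higher and 10 lower. With trends in GC content and length removed, 40.6% of the genes that passed were higher. The mitochondrial list in that fit gave 2 higher and 8 lower and the cytosolic list 0 higher and 10 lower. Without the length offset the mitochondrial list gave 7 higher and 4 lower and the cytosolic list 1 higher and 5 lower. TMM size factors or edgeR gave 5 higher and 3 lower in the mitochondrial list and 0 higher and 6 lower in the cytosolic list. In each of these fits the cytosolic list thus had more genes lower than higher. The normalized counts of the groups did not overlap for 20 of the 31 members (64.5%), against 49.2% of all genes tested and 68.2% of genes with at least 500 counts. Only SLC25A37 and BOLA1 were also beyond a log2 fold change of 1, past which 8.18% of all genes were called higher and 2.60% lower.

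**Figure D1:**
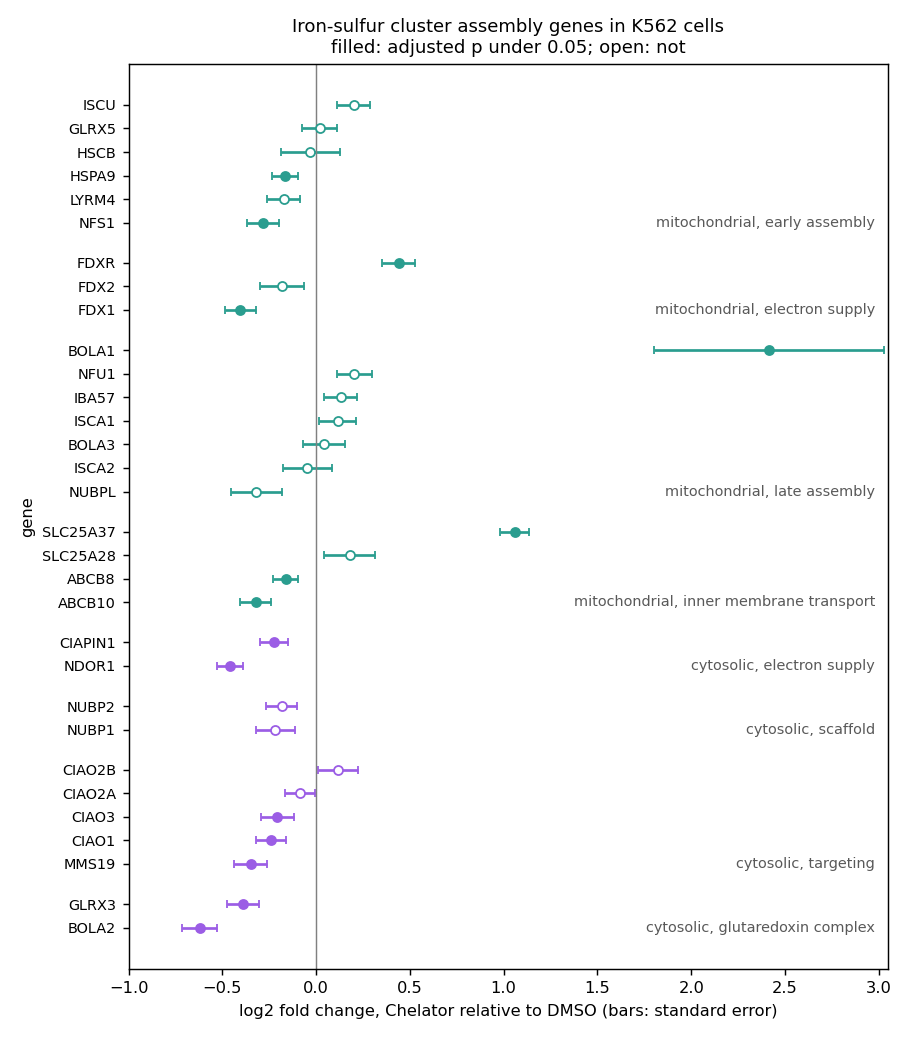
Log2 fold change of each of the 31 genes, Chelator relative to DMSO (x axis, bars are the standard error of the DESeq2 fit), grouped by machinery and role. Filled points have an adjusted p under 0.05. BOLA1 at 2.41 and SLC25A37 at 1.06 lie to the right of all others, and 10 of the 11 cytosolic genes lie left of 0.

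Among the 6 genes of early mitochondrial assembly 2 fell and 4 did not pass. NFS1, which takes sulfur from cysteine, had normalized counts of 3704, 3364 and 3872 in DMSO and 3097, 2878 and 3021 in Chelator. Every Chelator library lay below every DMSO library. Its log2 fold change was -0.28 (SE 0.085, DESeq2 adjusted p = 0.00341), but -0.12 (adjusted p = 0.211) without the length offset. The chaperone HSPA9 was the most abundant member, at 386.9, 441.4 and 400.6 TPM in DMSO and 385.4, 363.1 and 368.9 TPM in Chelator. Its groups differed little on this scale, and its value of -0.16 (SE 0.069, DESeq2 adjusted p = 0.0482) passed in 6 of 14 other fits. LYRM4, the partner of NFS1, was at -0.17, the co-chaperone HSCB at -0.031 and GLRX5 at 0.020, and none of them passed. Genes on the opposite strand share 17.5% of the 31-base sequences of HSCB (CHEK2, mean of 1933 counts) and 11.4% of those of GLRX5 (SNHG10, mean of 534.1 counts).

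ISCU, the scaffold itself, stood at 55.9, 59.2 and 60.5 TPM in DMSO and at 64.3, 70.5 and 71.7 TPM in Chelator. All Chelator libraries were above all DMSO libraries, yet the log2 fold change of 0.20 (SE 0.089) did not pass (DESeq2 adjusted p = 0.0619). It passed in 4 of 14 other fits, among them the fit without the length offset (0.32, adjusted p = 8.44e-04). ISCU is a known target of miR-210, a microRNA of the hypoxia response. The sequence of the mature microRNA from RefSeq (GRCh38.p14, chr11:568112-568133, minus strand) is shown with its seed, bases 2 to 8, in capitals, and after it the stretch of the transcript ISCU-201 that holds the only full complement of that seed, in capitals. That complement, ACGCACA, lies at transcript positions 642 to 648 of 983 (chr12:108569027-108569033, GRCh38, plus strand), in the 3′ untranslated region.
hsa-miR-210-3p: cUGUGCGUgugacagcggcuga
ISCU-201: gaagagctatgagatACGCACAa
The polyadenylated host RNA of the microRNA, MIR210HG, had 47, 36 and 29 counts in DMSO and 250, 360 and 310 counts in Chelator. It rose by 3.43 on the log2 scale (SE 0.26, DESeq2 adjusted p = 1.19e-37), while the mature microRNA was not measured in these libraries.

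The electron supply of the mitochondrial machinery held changes in both directions. FDXR (chromosome 17, 74862497 to 74873031, minus strand, GRCh38), the reductase that passes electrons from NADPH to the ferredoxins, had normalized counts of 5371, 4941 and 5259 in DMSO and 6991, 6396 and 7751 in Chelator. The groups were well apart (log2 fold change 0.44, SE 0.088, DESeq2 adjusted p = 3.51e-06). With GC content and length trends removed the value was 0.11 (adjusted p = 0.229), and it passed in the 13 other alternatives. FDX1, a ferredoxin also needed for steroid synthesis and protein lipoylation, went the other way, from 2805, 2674 and 2706 normalized counts to 2167, 1961 and 2058. No library of a group reached into the other, and the log2 fold change was -0.40 (SE 0.083, DESeq2 adjusted p = 7.28e-06). FDX2, the ferredoxin of cluster assembly, stood at -0.18 (SE 0.12, DESeq2 adjusted p = 0.240), and 61.2% of its 31-base sequences also occur in an overlapping readthrough gene. Summed with that gene it was at -0.15 (adjusted p = 0.335). It passed in 2 fits, at -0.33 (adjusted p = 0.0152) with centred libraries and at -0.58 (adjusted p = 1.17e-07) with GC content and length trends removed.

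FDXR transcripts began at 2 places. Of the annotated FDXR transcripts with counts, 16 start between 74872942 and 74873031, and 3 start further downstream within the gene, between 74868473 and 74868753. The RefSeq promoter windows of both places are printed because the results separate them (GRCh38.p14, minus strand, 250 bases before to 50 after the start). Neither holds the core of the hypoxia response element, ACGTG or GCGTG, on either strand, so no letters are in capitals. The downstream window belongs to the start of FDXR-205 at 74868753. FDXR-211, starting at 74868631, and FDXR-215, starting at 74868473, begin outside it.
FDXR upstream start, chr17:74872945-74873244: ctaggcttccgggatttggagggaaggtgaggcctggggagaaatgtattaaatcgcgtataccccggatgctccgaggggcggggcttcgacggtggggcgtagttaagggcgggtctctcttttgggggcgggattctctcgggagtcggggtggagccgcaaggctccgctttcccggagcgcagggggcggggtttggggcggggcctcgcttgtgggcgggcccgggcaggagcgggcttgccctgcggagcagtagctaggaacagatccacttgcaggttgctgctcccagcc
FDXR downstream start, chr17:74868704-74869003: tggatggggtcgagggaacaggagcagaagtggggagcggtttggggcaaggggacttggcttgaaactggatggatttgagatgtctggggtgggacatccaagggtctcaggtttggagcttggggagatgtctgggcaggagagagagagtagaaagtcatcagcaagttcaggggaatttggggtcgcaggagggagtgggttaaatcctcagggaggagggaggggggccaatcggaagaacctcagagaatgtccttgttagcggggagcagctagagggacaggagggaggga

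Transcripts from the downstream FDXR start held 215, 73 and 60 estimated counts in DMSO and 616, 772 and 693 in Chelator. As a share of the gene's TPM they were 5.24%, 1.81% and 2.26% in DMSO and 15.2%, 18.8% and 21.6% in Chelator. The lowest Chelator library was well above the highest DMSO library. In TPM the downstream start gave 1.19 ± 0.686 (SD, n = 3) in DMSO and 10.1 ± 2.52 (SD, n = 3) in Chelator, a ratio of 8.44. The upstream start gave 37.7 ± 2.49 TPM in DMSO and 43.8 ± 2.80 TPM in Chelator (SD, n = 3), a ratio of 1.16. TPM divides by transcript length, and in counts the order of the differences was the other way. Per 1e+06 estimated counts, the upstream start gave 57.6 ± 0.174 in DMSO and 70.7 ± 4.79 in Chelator, and the downstream start 1.34 ± 0.904 and 7.38 ± 0.886 (SD, n = 3). Much of the downstream TPM lay in FDXR-211, a short transcript of 558 bases whose annotated end, at 74864896, is inside the gene. FDXR-211 held 15, 0 and 6 counts in DMSO and 146, 197 and 300 in Chelator, or 0.716% ± 0.726 and 12.2% ± 3.92 of the gene's TPM (SD, n = 3). FDXR-205, which runs on to the usual end of the gene, held 199, 70 and 49 counts in DMSO and 464, 561 and 385 in Chelator. These sums were made after the transcripts' values were seen and carry no test of their own. None of the 4092 31-base sequences of FDXR occurs in another gene. The test across transcripts called FDXR for usage (edgeR adjusted p = 0.0189), with the transcript FDXR-201 falling by 13.2 points of the gene's TPM. The adjusted p was 0.117 with the replicate number as a block, 0.164 when DMSO replicate 3 was left out and 0.105 when Chelator replicate 2 was, and each of these ended the call.

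**Figure D2:**
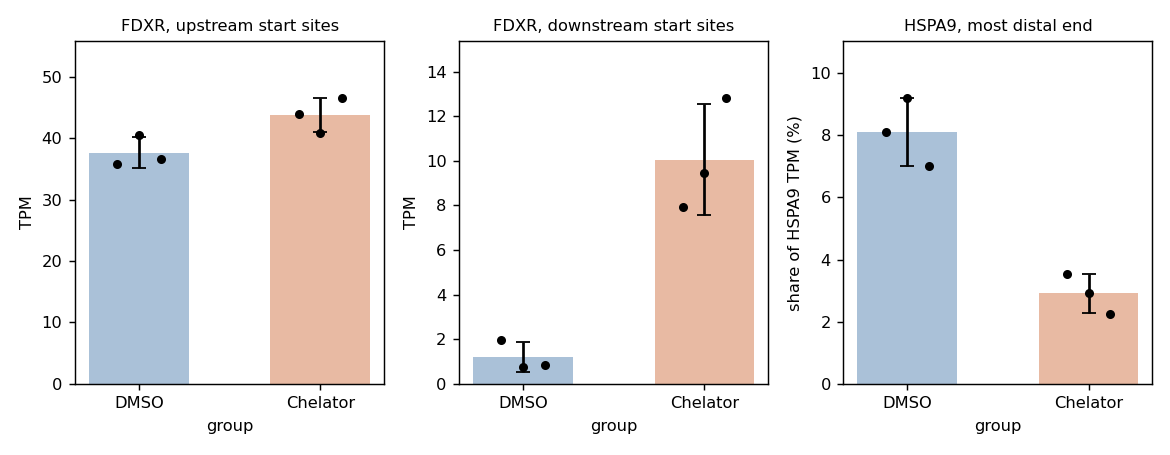
TPM of FDXR transcripts from the upstream and the downstream start sites, and share of HSPA9 TPM (percent) in transcripts ending at the most distal annotated site, in DMSO and Chelator. Bars are means, error bars the SD over 3 libraries, points the libraries. The downstream FDXR start stands at 1.19 TPM in DMSO and 10.1 TPM in Chelator, and the distal HSPA9 end at 8.10% and 2.91%.

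Of the 7 late assembly genes, 1 rose and 6 did not pass. BOLA1 (chromosome 1, 149887890 to 149900798, plus strand, GRCh38), a mitochondrial partner of GLRX5, was the least expressed member by far. It had 5, 10 and 5 estimated counts in DMSO and 47, 49 and 47 in Chelator. Its level remained low, at 0.132 ± 0.0753 TPM in DMSO and 0.693 ± 0.0744 TPM in Chelator (SD, n = 3). The log2 fold change was 2.41 (SE 0.61, 95% interval 1.21 to 3.62, DESeq2 adjusted p = 3.65e-04). It lay between 2.07 and 2.86 in all 14 other fits and passed in each. The gene H2AC21 lies on the opposite strand at this locus with a mean of 17.5 counts, and whether the libraries kept the strand is not given in the sources used here. The RefSeq promoter window of BOLA1 is shown because the gene had the largest fold change of the set (GRCh38.p14, plus strand), with the core letters ACGTG or GCGTG, read on either strand, in capitals where found on the strand printed.
BOLA1 promoter, chr1:149899318-149899617: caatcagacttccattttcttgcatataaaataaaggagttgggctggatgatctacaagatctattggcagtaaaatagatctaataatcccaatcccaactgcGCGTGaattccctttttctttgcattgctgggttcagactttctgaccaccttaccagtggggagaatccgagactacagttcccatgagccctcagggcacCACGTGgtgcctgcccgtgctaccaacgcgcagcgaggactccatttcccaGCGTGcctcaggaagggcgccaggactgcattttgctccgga
This window belongs to the start at 149899568. Another annotated start, at 149887890, held 4, 5 and 0 counts in DMSO and 36, 24 and 14 in Chelator, against 1, 5 and 5 and then 11, 25 and 33 for the 3 transcripts that start from 149899568 to 149899626. The split between the starts rests on few counts. The window held 4 matches, of which the palindrome CACGTG gives 2, 1 on each strand. Such a core was found in 48.4% of all 35116 promoter windows, in 54.7% of those of protein-coding genes and in 26 of the 37 windows of members (70.3%), which belong to 28 members. A match describes these letters and is not a binding site.

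The other late factors did not pass in the fit reported. NFU1, which delivers clusters to lipoate synthase, was at 0.20 (SE 0.093, DESeq2 adjusted p = 0.0704) and passed in 4 of 14 other fits. The scaffold-like proteins ISCA1 and ISCA2 with their partner IBA57 stood at 0.12, -0.047 and 0.13, and BOLA3 at 0.042. NUBPL, which serves complex I, was at -0.32 (SE 0.14, DESeq2 adjusted p = 0.0524). It passed in 6 of 14 other fits, among them the fit without the length offset (-0.43, adjusted p = 2.27e-04).

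Among the inner membrane carriers 1 of 4 rose and 2 fell. SLC25A37 (chromosome 8, 23528956 to 23575463, plus strand, GRCh38), the iron importer of erythroid mitochondria, had normalized counts of 14590, 14010 and 16050 in DMSO and 29630, 30850 and 32520 in Chelator. The groups were far apart relative to their spread. The level went from 70.1 ± 4.85 to 149 ± 9.58 TPM (SD, n = 3), and the log2 fold change came to 1.06 (SE 0.076, 95% interval 0.91 to 1.21, DESeq2 adjusted p = 6.43e-42). The value stayed above 1 in 11 of 14 other fits and was 0.95 without the length offset, 0.91 with centred libraries and 0.98 with GC content and length trends removed. SLC25A37 transcripts annotated as retained intron held 55.6% ± 2.44 of the gene's TPM in DMSO and 58.1% ± 1.45 in Chelator (SD, n = 3). Protein-coding transcripts of SLC25A37 held 22.4% ± 1.57 in DMSO and 15.6% ± 1.06 in Chelator (SD, n = 3). Its paralog SLC25A28 (mitoferrin 2), at 6.31 ± 0.261 TPM in DMSO and 7.32 ± 1.26 TPM in Chelator (SD, n = 3), did not pass (log2 fold change 0.18, SE 0.14, DESeq2 adjusted p = 0.327). ABCB10, an inner membrane transporter known to bind SLC25A37, fell from 12710, 12840 and 12800 normalized counts to 11330, 9375 and 9974. Its DMSO libraries were close together and its Chelator libraries were spread below them (log2 fold change -0.32, SE 0.082, DESeq2 adjusted p = 4.14e-04). ABCB8, linked to iron export from mitochondria, was at -0.16 (SE 0.067, DESeq2 adjusted p = 0.0427) and passed in 6 of 14 other fits.

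**Figure D3:**
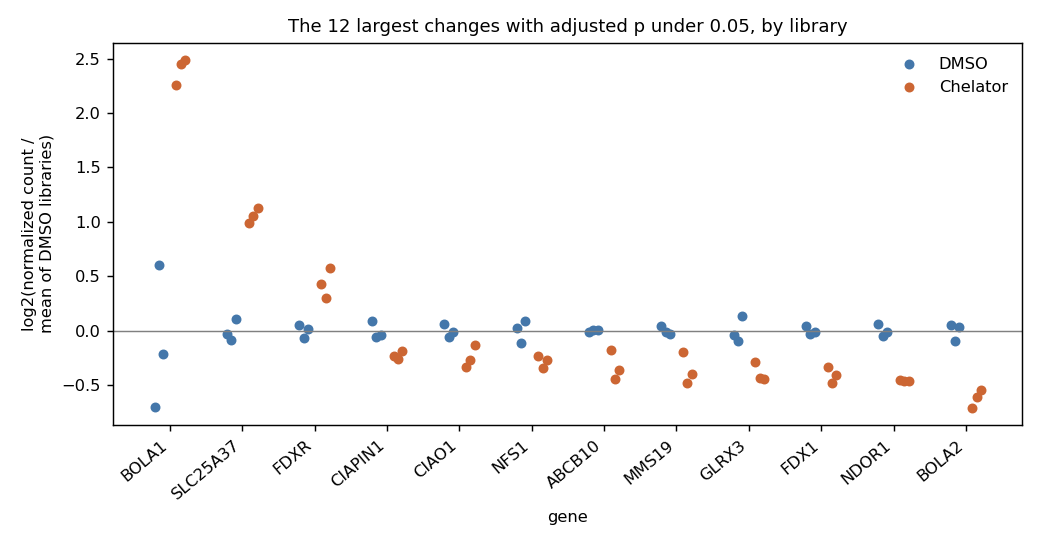
Normalized count of each library relative to the mean of the DMSO libraries (y axis, log2) for the 12 genes with the largest absolute log2 fold change among those with an adjusted p under 0.05. In each of the 12 genes the 3 Chelator points lie on the same side of all 3 DMSO points, above for BOLA1, SLC25A37 and FDXR and below for the other 9.

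Both genes of cytosolic electron supply fell. NDOR1, the flavoprotein that takes electrons from NADPH, had normalized counts of 8021, 7454 and 7642 in DMSO and 5615, 5607 and 5594 in Chelator. The Chelator libraries were almost equal, and the log2 fold change was -0.46 (SE 0.068, DESeq2 adjusted p = 1.38e-10). An overlapping readthrough gene shares 34.4% of the 31-base sequences of NDOR1, and summed with it the value was -0.33 (adjusted p = 1.97e-05). CIAPIN1, the iron-sulfur protein that receives these electrons, had 7331, 6637 and 6708 normalized counts in DMSO and 5876, 5760 and 6052 in Chelator. Its groups did not overlap, and the log2 fold change was -0.23 (SE 0.074, DESeq2 adjusted p = 0.00752). Neither subunit of the scaffold passed, with NUBP1 at -0.22 (SE 0.10, DESeq2 adjusted p = 0.0855) and NUBP2 at -0.18 (SE 0.081, DESeq2 adjusted p = 0.0591). Each passed as lower in 4 of 14 other fits, and with GC content and length trends removed NUBP1 was at -0.41 (adjusted p = 1.28e-04) and NUBP2 at -0.58 (adjusted p = 1.82e-20). TVP23A, on the opposite strand with a mean of 47.0 counts, shares 30.8% of the 31-base sequences of NUBP1.

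Of the 5 genes that hand clusters to client proteins, 3 fell. MMS19, which recruits DNA polymerases, helicases and other nuclear clients, had 6887, 6605 and 6537 normalized counts in DMSO and 5848, 4796 and 5080 in Chelator. All Chelator libraries were lower (log2 fold change -0.35, SE 0.088, DESeq2 adjusted p = 3.38e-04). CIAO1, the WD40 protein of the targeting complex, had 8929, 8224 and 8506 normalized counts in DMSO and 6790, 7115 and 7801 in Chelator. The nearest libraries of the groups were 7801 and 8224, and the log2 fold change was -0.24 (SE 0.079, DESeq2 adjusted p = 0.00748). CIAO3, the adaptor between scaffold and targeting complex, was at -0.21 (SE 0.088, DESeq2 adjusted p = 0.0494) and passed in 5 of 14 other fits. HAGHL, on the opposite strand with a mean of 2218 counts, shares 19.5% of the 31-base sequences of CIAO3, so without strand the reads of this overlap cannot be assigned to either gene. CIAO2B, the partner of CIAO1 and MMS19, had the only value above 0 in the cytosolic list, 0.12 (SE 0.11, DESeq2 adjusted p = 0.440). CIAO2A, which serves the iron regulatory protein IRP1, was the most abundant cytosolic member and was at -0.088 (SE 0.080, DESeq2 adjusted p = 0.427).

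The cytosolic glutaredoxin GLRX3 and its partner BOLA2 both fell. GLRX3 went from 8971, 8646 and 10130 normalized counts to 7558, 6830 and 6795. The groups did not overlap (log2 fold change -0.39, SE 0.085, DESeq2 adjusted p = 2.95e-05). BOLA2 had 2311, 2084 and 2280 normalized counts in DMSO and 1363, 1460 and 1522 in Chelator, which put its log2 fold change at -0.62 (SE 0.093, DESeq2 adjusted p = 3.48e-10). Its estimated counts before the length offset overlapped, at 1941, 1649 and 1766 in DMSO and 1568, 2055 and 1826 in Chelator. BOLA2 is the shortest member, with a mean effective length of 157 bases in DMSO and 209 bases in Chelator. Without the length offset its value was -0.21 (adjusted p = 0.115) and with GC content and length trends removed -1.11. All of its 31-base sequences occur in other genes, so its reads cannot be told from those of its copy BOLA2B (log2 fold change -0.65, SE 0.14, DESeq2 adjusted p = 2.31e-05) and of the readthrough gene BOLA2-SMG1P6 (-0.38, SE 0.081, DESeq2 adjusted p = 2.02e-05). The sum of the 3 genes was at -0.57 (SE 0.082, DESeq2 adjusted p = 4.66e-11).

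**Figure D4:**
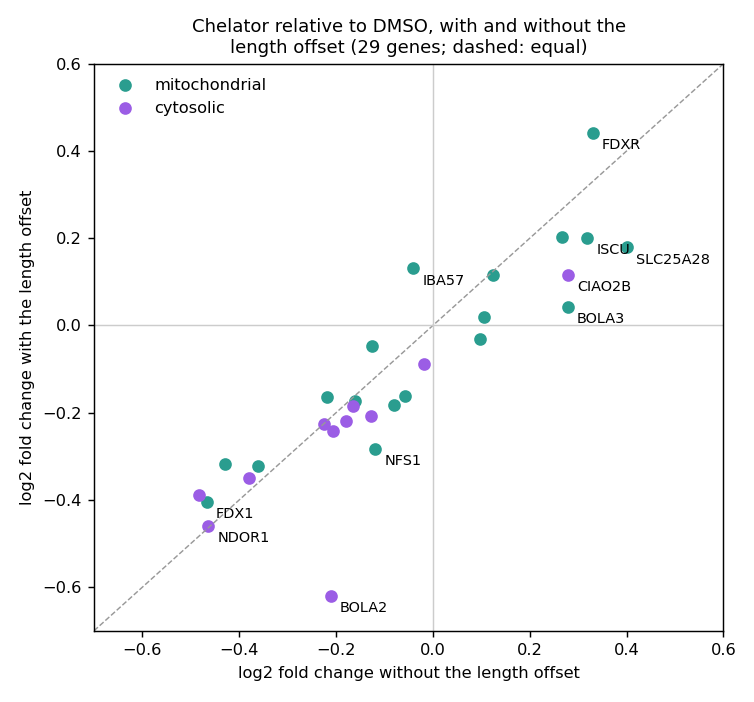
Log2 fold change of 29 members without (x axis) and with (y axis) the length offset; BOLA1 and SLC25A37, outside the plotted range, are left out. Points on the dashed line have equal values. BOLA2 drops from -0.21 to -0.62 and NFS1 from -0.12 to -0.28 with the offset, while IBA57 moves from -0.040 to 0.13.

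The levels were also summed over each machinery. The mitochondrial genes summed to 1189, 1285 and 1237 TPM in DMSO and to 1255, 1313 and 1319 TPM in Chelator. These groups overlapped, the ratio of means was 1.05, and it was 0.983 without SLC25A37 and 1.12 without HSPA9. Per 1e+06 estimated counts the same genes summed to 1633, 1654 and 1661 in DMSO and to 1756, 1776 and 1806 in Chelator, with no overlap and a ratio of 1.08, and without HSPA9 the TPM sums did not overlap either. The cytosolic genes summed to 862.1, 923.5 and 883.6 TPM in DMSO and to 735.4, 791.3 and 777.5 TPM in Chelator. Here every Chelator library was lower, and the ratio of means was 0.863, or 0.898 in counts. The cytosolic sum divided by the mitochondrial sum was 0.725, 0.718 and 0.714 in DMSO and 0.586, 0.603 and 0.589 in Chelator. As the members are not replicates, these sums are a description with no test.

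**Figure D5:**
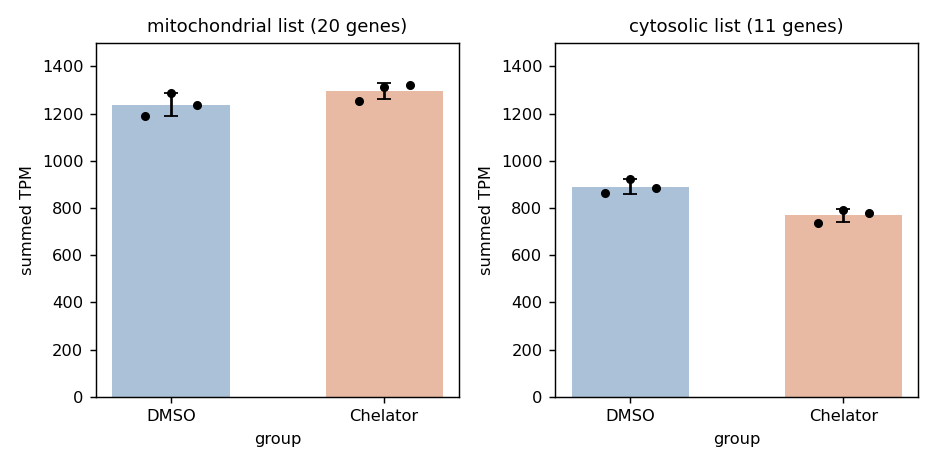
Summed TPM of the 20 mitochondrial and the 11 cytosolic genes in DMSO and Chelator. Bars are means, error bars the SD over 3 libraries, points the libraries. The mitochondrial groups overlap on this scale, and the cytosolic Chelator libraries (735.4 to 791.3) lie below the DMSO libraries (862.1 to 923.5).

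The members spanned a wide range of levels. After HSPA9 at 410 ± 28.3 TPM in DMSO came CIAO2A at 184 ± 5.16, BOLA3 at 165 ± 10.6, BOLA2 at 158 ± 6.16, GLRX3 at 152 ± 11.6, GLRX5 at 133 ± 10.1 and CIAO2B at 110 ± 9.09 TPM (SD, n = 3). BOLA3, BOLA2 and GLRX3 overlapped in this order. At the lower end stood NUBPL at 8.59 ± 1.36, SLC25A28 at 6.31 ± 0.261 and BOLA1 at 0.132 ± 0.0753 TPM. SLC25A37, at 70.1 TPM in DMSO, lay below all 7 of the leading members, and in Chelator at 149 TPM it was exceeded by HSPA9, CIAO2A and BOLA3 alone.

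A further 13 genes that work beside these machineries were read as a list, of which 1 rose and 4 fell, with a median log2 fold change of -0.057. The share that fell, 30.8%, stands beside 35.6% of genes with at least 500 counts, a class that holds 12 of the 13, and the share that rose, 7.69%, beside 26.0%. Groups did not overlap for 38.5% of the list against 68.2% of that class. LYRM7, which inserts the iron-sulfur protein of complex III, was at -0.74 (SE 0.076, DESeq2 adjusted p = 3.66e-21). SDHAF3, an assembly factor of complex II, was at -0.68 (SE 0.11, DESeq2 adjusted p = 8.71e-10). GRPEL1, the nucleotide exchange factor of HSPA9, was at -0.60 (SE 0.073, DESeq2 adjusted p = 4.36e-15), and NDUFAB1, the acyl carrier protein that binds LYRM4, at -0.28 (SE 0.075, DESeq2 adjusted p = 8.41e-04). LTO1, an adaptor that brings a single client to the cytosolic targeting complex, rose by 0.28 on the log2 scale (SE 0.10, DESeq2 adjusted p = 0.0173). GRPEL2, YAE1, SDHAF1, GFER, SLC25A39, SLC25A40, TXN2 and TXNRD2 did not pass.

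Transcript usage was tested in 29 members, of which 2, FDXR and HSPA9, were called, against 9.22% of the 11938 genes tested. A call needed an adjusted p under 0.05 and a change of more than 5 points in a transcript's share of the gene's TPM. In HSPA9 (chromosome 5, 138553756 to 138575675, minus strand, GRCh38) the largest share change was that of HSPA9-222, annotated without a coding sequence. That share lay between 34.4% and 35.1% in DMSO and between 39.0% and 41.7% in Chelator. The test over all tested transcripts of the gene, not HSPA9-222 alone, gave an edgeR adjusted p of 2.09e-38. With limma in place of edgeR the adjusted p was 0.0664, and without DMSO replicate 1 it was 0.0555 in edgeR. The 13 HSPA9 transcripts that end at the most distal site, 138553756, together held 8.10% ± 1.1 of the gene's TPM in DMSO and 2.91% ± 0.635 in Chelator (SD, n = 3). Their counts were 9428, 10228 and 7153 in DMSO and 4217, 3473 and 2300 in Chelator, with no overlap. Within them HSPA9-201 was estimated at 5721, 7512 and 4192 counts in DMSO and at 0 in every Chelator library.

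Other members were not called for usage and are given by their values. The adjusted p-values beside them are those of the whole gene, over its tested transcripts, and not of the transcript or class named. In SLC25A28 the retained-intron transcript SLC25A28-209 held 33.7%, 19.5% and 26.0% of the gene's TPM in DMSO and 45.7%, 45.8% and 53.1% in Chelator (edgeR adjusted p = 0.888). The groups were apart, but its counts were 191 to 760 per library. In NUBP2, the coding transcript NUBP2-201 held 47.8%, 53.8% and 51.8% in DMSO and 29.7%, 33.7% and 32.6% in Chelator, while transcripts annotated for nonsense-mediated decay held 29.2% ± 2.43 and 45.3% ± 0.787 (SD, n = 3, edgeR adjusted p = 0.169). In HSCB such transcripts held 42.7% ± 1.92 in DMSO and 25.0% ± 1.88 in Chelator (SD, n = 3, edgeR adjusted p = 1). The share of CIAO1-201 was 8.56 points higher in Chelator (edgeR adjusted p = 0.0677). ABCB8 had an edgeR adjusted p of 0.0450, but the difference for its leading transcript was -4.09 points, short of the limit for a call. The main coding transcript of SLC25A37, SLC25A37-206, had 5028, 5071 and 4438 counts in DMSO and 8316, 8526 and 7593 in Chelator, and its share of the gene's TPM was 22.4% ± 1.57 and 15.5% ± 1.06 (SD, n = 3, edgeR adjusted p = 1).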

How the data were processed

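Polyadenylated RNA of 3 DMSO and 3 Chelator (21H7) cultures of K562 cells was sequenced as paired-end reads. The authors quantified transcripts with Salmon (version 1.10.2 in the submitters' processing notes), and the deposited files give an estimated count, a TPM and an effective length for each of 252045 transcripts, each library on its own. The transcript annotation and the strandedness of the kit are not given in the sources used here. The deposited estimated counts, which salmon divides among transcripts that share reads, were summed per gene by GENCODE release 44 names on GRCh38 and rounded. The deposited TPM, scaled by the authors for effective length and depth, were summed per gene and used for levels. Transcripts without a match held up to 0.150% of counts and were left out.

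Genes with a total above 10 entered DESeq2 (1.42.0, R 4.3.3) with median-ratio size factors and each gene's average transcript length as an offset, since the libraries differed in fragment length. Of 26074 genes tested, 24542 had a Benjamini-Hochberg adjusted p after DESeq2's default filters, and the threshold was 0.05. Transcript usage was tested with edgeR (4.0.16, diffSpliceDGE) over transcripts with at least 10 counts in 3 libraries. Alternatives were edgeR, TMM factors, centring, no offset, other filters, removal of GC content and length trends, the replicate number as a block, limma (3.58.1) for usage, and each library left out. The sums of BOLA2, NDOR1 and FDX2 with overlapping genes were added after seeing the data. Shared 31-base sequences were counted between annotated transcripts. Both test scripts were tested on simulated data. Promoters and the microRNA came from RefSeq tables (GRCh38.p14).

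The members and lists were chosen with earlier results of these data known. Every member is described. Full values per library were given to the 12 members with the largest absolute log2 fold change among those passing, to members past an absolute log2 fold change of 1, and to members called for usage. P-values compare the difference between groups with the spread between the 3 libraries of each group, moderated by information from all genes. One marker of K562 cells is not reported here.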

Additional observations from a re-analysis of the deposited data

How the results depend on the processing

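The alternatives left the direction of the 15 members that passed in place, and the counts moved as follows. Mitochondrial genes passing as higher were 3 in the fit reported, 5 with edgeR or with TMM size factors, 7 without the length offset, and 3 to 5 when each library was left out (5 without DMSO replicate 3). Mitochondrial genes passing as lower were 5 in the fit reported, 3 with edgeR, with TMM size factors or with no filter, 8 with centred libraries or with GC content and length trends removed, and 3 to 6 with a library left out (3 without DMSO replicate 1, Chelator replicate 2 or Chelator replicate 3). Cytosolic genes passing as higher were 0, or 1 without the length offset. Those passing as lower were 7 in the fit reported and 10 with centred libraries or with GC content and length trends removed. They were 5 without the length offset, 6 with edgeR, TMM size factors, no filter or the replicate block, and 6 to 9 with a library left out. With a log2 fold change beyond 1 required as well, 0 genes of either list passed as lower in the fit reported. With GC content and length trends removed BOLA2 was at -1.11, beyond that limit. The members called for usage were 2, or 8 with limma, 1 at a change of more than 10 points and 1 to 3 with a library left out (1 without DMSO replicate 1, DMSO replicate 3 or Chelator replicate 2). The ratio of mitochondrial sums, 1.05, was 1.12 without HSPA9, 1.08 in counts per 1e+06 counts and 0.983, the other direction, without SLC25A37, and the ratio of cytosolic sums, 0.863, was 0.898 in counts per 1e+06 counts. The cause of these changes was not tested.

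Of members that did not pass, LYRM4 passed in 3 of 14 other fits, SLC25A28 and CIAO2A in 2 each and BOLA3 and CIAO2B in 1 each. The log2 fold change of some turned. HSCB was 0.015 with edgeR, 0.014 with TMM size factors, 0.097 without the length offset and -0.16 to 0.049 with a library left out. GLRX5 was -0.13 with centred libraries, -0.16 with GC content and length trends removed and -0.059 to 0.11 with a library left out. ISCA1 was -0.036 with centred libraries, and ISCA2 -0.14 to 0.072 with a library left out. IBA57 was -0.021 with centred libraries, -0.040 without the length offset and -0.095 with GC content and length trends removed. BOLA3 was -0.11 with centred libraries, -0.13 with GC content and length trends removed and -0.082 to 0.11 with a library left out. SLC25A28 was -0.044 with GC content and length trends removed, and CIAO2B was -0.036 with centred libraries and -0.20 with GC content and length trends removed.

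With the replicate number as a block, the mitochondrial genes passing as lower were 3 and the members called for usage 1. Deviations of libraries with the same number correlated at -0.18, 0.013 and 0.071, and those with different numbers between -0.17 and 0.15. With 3 libraries per group these values cannot decide whether the numbers pair the cultures. Treatment cannot be told apart from fragment length here, which bears most on short genes such as BOLA2, and BOLA1 rests on at most 49 counts per library.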
